A study of Mus musculus with 42 samples.

Results

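The GIMAP genes (GTPases of immunity-associated proteins) Gimap1, Gimap3, Gimap4, Gimap5, Gimap6, Gimap7, Gimap8 and Gimap9 were taken by symbol from the gene count matrix of 42 MC38 tumors, as 8 of the 26811 genes it holds. They were selected on their measured levels in the 5 treatment groups, which were known when the family was chosen. MC38 is a mouse colon cancer line derived from C57BL/6J. All 8 genes passed the filter on low counts, as did 16932 genes in all. Tumors were grown in female F1 mice of the cross CC075/UncJ x C57BL/6J, aged 8 to 12 weeks when MC38 cells were injected under the skin, so that every tumor came from hosts of a single cross. CC075/UncJ is a strain of the Collaborative Cross, a panel of recombinant inbred mice. The blocking antibodies were aGMCSF (100 µg), against the myeloid growth factor GM-CSF, and aIL2RB (200 µg), against the beta chain that the receptors for interleukin-2 and interleukin-15 share. Mice received these or isotypes of the same class and amount from engraftment at 3-day intervals, and the labels do not tell apart which isotypes each mouse received. Once a tumor measured 75 to 110 mm3, its host was given 1 dose of 200 µg of aPD1 (against the checkpoint receptor PD-1) or of an isotype, and the tumor was taken 48 h later. The groups were isotype control (n = 5 tumors), aPD1 (n = 6), aPD1 + aGMCSF (n = 9), aPD1 + aIL2RB (n = 11) and aPD1 + aGMCSF + aIL2RB (n = 11), and the labels number the tumors of each group as biological replicates. No group received a blocking antibody without aPD1, and no source used here says whether an antibody removes the cells it binds.

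Total counts per tumor ran from 7155486 (aPD1 + aGMCSF + aIL2RB replicate 4, the next lowest being 15109228) to 24101674, and 5 ribosomal RNA genes held 1.72% to 17.9% of them. Replicate numbers were split into a lower range (isotype control 1 and 2, aPD1 1 to 3, aPD1 + aGMCSF 1 to 5, and 1 to 6 in both groups given aIL2RB, 22 tumors) and a higher range (20 tumors), because earlier results of these data had parted tumors along them. The labels do not name these ranges. With treatment in the model, 25.1% of all genes tested passed the threshold between them (edgeR, adjusted p under 0.05), a share that follows in part from this origin of the ranges. Epithelial markers were low for a colon line, and Epcam, Krt8, Krt18 and Krt19 each had tumors at 0 counts. The tumors were not separated into cell types, so that fewer cells of a type and less RNA per cell cannot be told apart in any result below.

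GIMAP proteins are small GTPases that sit mostly on membranes inside lymphocytes, and their genes lie side by side in a cluster. Gimap5 and Gimap3 are known for the survival of T cells, Gimap1 for that of mature T and B cells, and Gimap4 for the timing of T cell death. Gimap6 has been tied to autophagy through GABARAPL2, a protein of the autophagosome membrane, Gimap7 is a partner that stimulates GTP hydrolysis by other members, and Gimap8 is the largest protein of the family, with several GTPase domains. Less is known of Gimap9. Some members are also used by endothelial cells, which line blood vessels.

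In the GRCm38 annotation the 8 genes occupied chr6:48647234-48770851. From the proximal end came Gimap8 (chr6:48647234-48660875, plus strand), Gimap9 (chr6:48676129-48679114, plus), Gimap4 (chr6:48684549-48692060, plus), Gimap6 (chr6:48701582-48708225, minus), Gimap7 (chr6:48718621-48724636, plus), Gimap1 (chr6:48739054-48743795, plus), Gimap5 (chr6:48746197-48754210, plus) and Gimap3 (chr6:48764464-48770851, minus). Coding sequences were 873 to 984 bases long in 7 of them and 2064 bases in Gimap8. Gimap3 and Gimap5 shared the longest identical coding stretch of any pair, 140 bases in the single coding exon that holds it in each gene, against 17 bases for the pair next in order. It is shown because reads were 100 bases long, and a read that falls within it cannot be assigned to either gene by its sequence alone. It lies at chr6:48765681-48765820 (minus) in Gimap3 and at chr6:48752684-48752823 (plus) in Gimap5, and is given in lower case throughout:
Gimap3 and Gimap5, coding: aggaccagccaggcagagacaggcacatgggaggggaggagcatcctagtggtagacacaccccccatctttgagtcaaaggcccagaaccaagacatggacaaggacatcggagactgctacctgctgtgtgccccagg
Of all 50-base windows in the coding sequences, 22.2% of those of Gimap3 and 21.7% of those of Gimap5 occurred in the other gene. The annotation also holds Gm28053, a readthrough gene (chr6:48718607-48752644, plus) whose exons share 198 bases with Gimap1, 153 with Gimap5 and 81 with Gimap7, and Gimap1os, an antisense gene (chr6:48738346-48741444, minus) that overlaps Gimap1. Expected counts that were not whole (beyond 0.05), which arise where reads were divided among genes, occurred for Gimap1 in 19 of 42 tumors, for Gimap5 in 7, for Gimap3 in 4 and for the other 5 members in 0. The values of Gimap1, Gimap3 and Gimap5 carry this uncertainty, and Gimap1 may also share reads with its antisense partner where they overlap, since the strand setting of the counting is not given in the sources used here. Summed with Gimap1os, the counts of Gimap1 were not whole in 13 tumors, and summed with Gm28053 as well, in 4.

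The 250 bases before the RefSeq start of each member were searched on both strands for the core letters of 5 factor families active in lymphocytes or endothelium. ETS letters (AGGAAG) occurred before 6 of 8 members and in 29.5% of 32817 such windows, RUNX letters (TGTGGT) before 3 of 8 and in 14%, KLF letters (CCACCC) before 4 of 8 and in 28.1%, TCF/LEF letters (CTTTGA) before 0 of 8 and in 13.8%, and GATA letters (AGATAA) before 0 of 8 and in 9.99%. The windows of Gimap3 and Gimap7, the members with the greatest differences between groups, and of Gimap9, the member with the least, are shown in GRCm38.p6 on the strand of each gene, with ETS, KLF and RUNX letters (or their reverse complement) in capitals. Bases within annotated exons were left out, 14 at the 3′ end for Gimap7 and 6 for Gimap9, and no matches of different families overlapped:
Gimap3, chr6:48770852-48771101 (minus): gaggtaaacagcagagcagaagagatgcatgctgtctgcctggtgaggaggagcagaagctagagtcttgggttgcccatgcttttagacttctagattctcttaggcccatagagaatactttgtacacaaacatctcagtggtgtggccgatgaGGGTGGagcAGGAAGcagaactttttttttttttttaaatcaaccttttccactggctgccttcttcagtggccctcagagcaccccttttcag
Gimap7, chr6:48718371-48718606 (plus): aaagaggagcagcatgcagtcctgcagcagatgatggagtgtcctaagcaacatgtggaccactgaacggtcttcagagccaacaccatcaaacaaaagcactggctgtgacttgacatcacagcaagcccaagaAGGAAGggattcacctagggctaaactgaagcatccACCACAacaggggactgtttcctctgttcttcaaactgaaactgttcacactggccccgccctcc
Gimap9, chr6:48675885-48676128 (plus): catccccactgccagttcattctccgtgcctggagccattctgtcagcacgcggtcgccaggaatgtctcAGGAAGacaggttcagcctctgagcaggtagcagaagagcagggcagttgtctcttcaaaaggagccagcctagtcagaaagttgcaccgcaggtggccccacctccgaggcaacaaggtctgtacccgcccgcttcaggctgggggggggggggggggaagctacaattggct
Each of the 3 held ETS letters. Gimap7 alone of these held RUNX letters, KLF letters stood in the Gimap3 window, and the Gimap9 match to KLF lay in the 6 bases left out. A match is a description of the letters and not a binding site.

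Levels between genes were compared per length, as counts-per-million (CPM) values per kb of exon. In isotype control tumors Gimap4 was the most abundant member at a mean of 11.0 CPM per kb, followed by Gimap9 (4.03), Gimap6 (3.19), Gimap3 (2.60), Gimap8 (1.41), Gimap1 (0.924), Gimap7 (0.793) and Gimap5 (0.491). Neighbours in this order overlapped between tumors for Gimap6 and Gimap3, for Gimap1 and Gimap7 and for Gimap7 and Gimap5, and the other neighbours did not. In aPD1 + aIL2RB tumors Gimap4 (8.20 CPM per kb), Gimap9 (3.79) and Gimap6 (2.80) kept the upper 3 places, whereas Gimap3 stood at 0.444, below Gimap8 (0.865) and Gimap1 (0.508), and Gimap7 was the least abundant at 0.140. In those tumors Gimap9 overlapped with Gimap6, as did the neighbours from Gimap8 downward with each other. Gimap3 thus moved down by 2 places in this order, and Gimap7 only changed places with Gimap5, with which it overlapped in both groups.

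The comparison of aPD1 with isotype control shows the members under checkpoint blockade alone. CPM here are scaled by TMM, differences are on the log2 scale of the edgeR fit with their standard error (SE), and the members' differences between treatments are a description without a p, because the genes were proposed with their levels in the 5 groups known. Gimap3, a T cell survival gene, measured 7.46, 7.94, 6.55, 5.82 and 5.70 CPM in the isotype control tumors and 8.69 (lowest), 11.7 (median) and 14.7 (highest) in the aPD1 tumors. The groups did not overlap, with means of 6.69 ± 0.989 (SD, n = 5) and 11.8 ± 2.42 (n = 6) and a log2 difference of 0.82 (SE 0.52). Gimap5, its near relative, measured 2.64, 1.83, 1.16, 2.03 and 2.52 CPM in isotype control and 2.93 to 4.59 (median 3.38) in aPD1, again without overlap and with a log2 difference of 0.82 (SE 0.32). Gimap4, which bears on T cell death, measured 19.1, 21.9, 18.2, 19.7 and 22 CPM against 27.5 to 38.3 (median 32.6), a log2 difference of 0.69 (SE 0.16). All 6 aPD1 tumors lay above the 5 isotype control tumors for this gene too.

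Gimap1, needed by mature lymphocytes, measured 2.36, 3.10, 3.18, 2.62 and 2.94 CPM in isotype control and 6.77, 5.10, 3.52, 3.83, 5.04 and 6.42 in aPD1, a log2 difference of 0.85 (SE 0.23) with no overlap. Gimap8 had the greatest log2 difference of the family, 0.98 (SE 0.28), with 4.39, 6.12, 4.94, 5.02 and 5.65 CPM against 6.48 to 16 (median 9.76). Gimap6, the member tied to autophagy, measured 10.9, 11.4, 9.22, 11.8 and 12.4 CPM against 10.7 to 20.5 (median 17.3), a log2 difference of 0.57 (SE 0.16). Its groups overlapped through the lowest aPD1 tumor. Gimap7 (1.98, 2.10, 1.66, 1.18 and 2.29 CPM against 1.66 to 3.51, median 2.38) and Gimap9 (7.41, 6.85, 6.30, 6.16 and 6.40 against 6.28 to 9.85, median 6.84) overlapped as well, with log2 differences of 0.43 (SE 0.61) and 0.13 (SE 0.13). Gimap1, Gimap4, Gimap6 and Gimap8, 4 of 8, passed the threshold as higher in aPD1, where 6.17% of all genes tested did, and 5 of 8 had groups that did not overlap, where 4.51% of all genes did. Leaving out 1 tumor took the count to as few as 2, through the loss of Gimap6, Gimap8 or both in 6 of 11 fits. It was 0 within the lower range of replicate numbers, which holds 2 isotype control and 3 aPD1 tumors. There the log2 differences of these 4 members were 0.90 (Gimap1), 0.60 (Gimap4), 0.44 (Gimap6) and 0.99 (Gimap8). The share of all genes passing within that range is not given. Over all tumors the median log2 difference was 0.75 over the members and near 0 over all genes. These counts follow from the choice of the genes, here and in the comparisons that follow, and nothing is read from them.

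**Figure D1:**
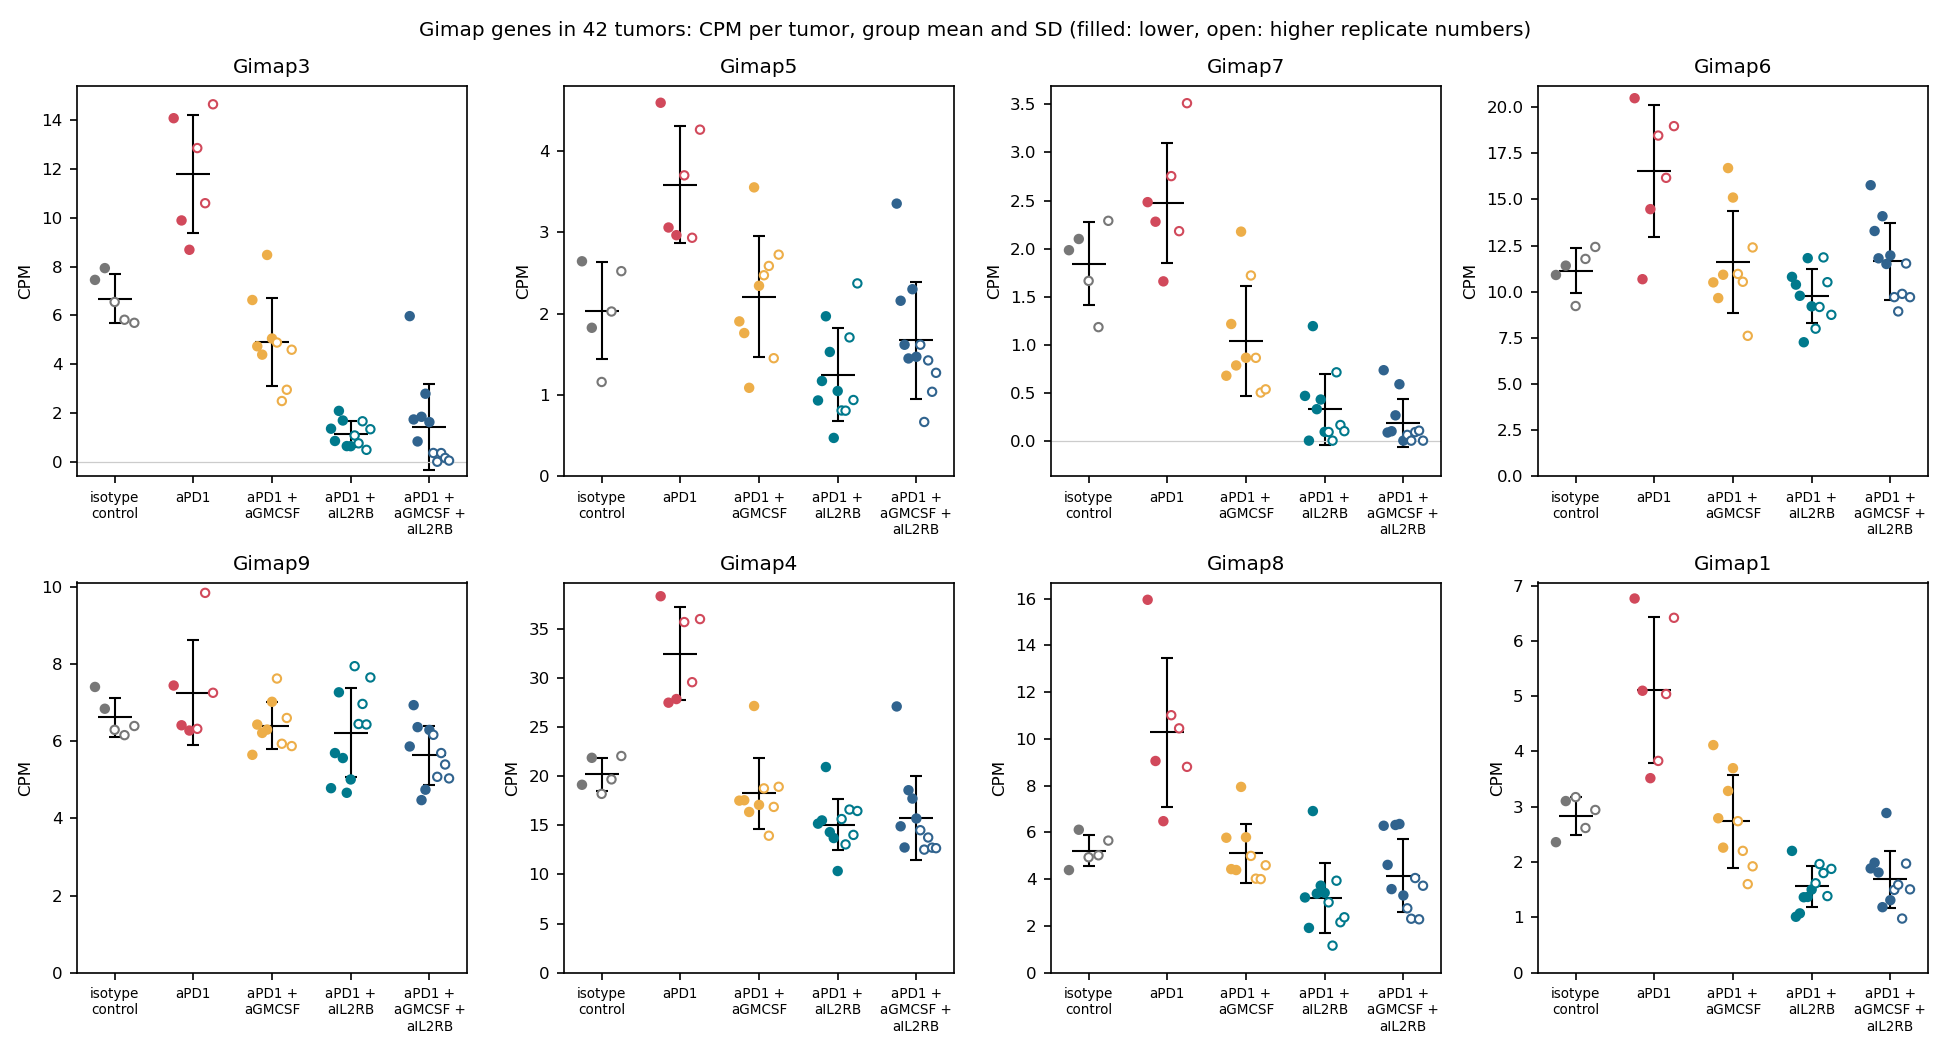
CPM of each Gimap gene in each of 42 tumors by treatment group, with the group mean and SD as bars, filled points for the lower and open points for the higher range of replicate numbers. The aPD1 tumors sit above the isotype control tumors without overlap for Gimap1, Gimap3, Gimap4, Gimap5 and Gimap8. Gimap7 reaches 0 in both groups given aIL2RB and Gimap3 only with both antibodies, and Gimap9 stays between 4.48 and 9.85 in every group.

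With aGMCSF added to aPD1, members stood lower than with aPD1 alone. Gimap3 ran from 2.49 to 8.48 CPM (median 4.74), every tumor below the lowest aPD1 tumor, with a log2 difference of -1.26 (SE 0.44). Gimap4, at 13.9 to 27.1 CPM (median 17.5), also lay wholly below the aPD1 tumors, with -0.83 (SE 0.13). Gimap1 (1.60 to 4.12 CPM, median 2.74) and Gimap8 (4.00 to 7.95, median 4.60) overlapped with aPD1 and gave -0.90 (SE 0.20) and -1.01 (SE 0.24). The other differences were -1.25 (SE 0.53) for Gimap7, -0.70 (SE 0.27) for Gimap5, -0.51 (SE 0.14) for Gimap6 and -0.18 (SE 0.12) for Gimap9. Gimap1, Gimap3, Gimap4, Gimap6 and Gimap8, 5 of 8, passed the threshold as lower, where 8.75% of all genes tested did, and 2 of 8 did not overlap, where 2.86% of all genes did not. The call of Gimap3 was lost in 11 of 15 fits with 1 tumor left out and with the replicate number as a block, and 0 members passed within the lower range of replicate numbers alone. That range holds 3 aPD1 and 5 aPD1 + aGMCSF tumors, and the 5 members stood there at -0.89 (Gimap3) to -0.27 (Gimap6). Against isotype control the aPD1 + aGMCSF tumors lay close for 7 members, at log2 differences of -0.45 (Gimap3) to 0.12 (Gimap5), and Gimap7 stood at -0.82 (SE 0.56). In that comparison 0 members passed the threshold in edgeR, 0 had an unadjusted p under 0.05 and 0 passed in DESeq2, while of all genes tested 0% passed and 938 had an unadjusted p under 0.05. Marker genes of some immune cells also stood lower in aPD1 + aGMCSF than in aPD1. Past the threshold as lower were 5 of 5 leukocyte genes (median log2 difference -0.81) and 8 of 9 macrophage genes (-0.70). So were 3 of 4 neutrophil genes (-1.64), 6 of 21 T cell genes (-1.25) and 1 of 7 natural killer genes (-1.02). Of 6 B cell genes 0 passed in edgeR or DESeq2 (-0.61), and of 7 dendritic cell genes 0 were lower and 1 was higher (-0.75). The part of all these genes in the values of the members was not tested.

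Adding aIL2RB to aPD1 gave the family its greatest differences in Gimap3 and Gimap7. Gimap3 ran from 0.489 to 2.09 CPM (median 1.08) in the 11 aPD1 + aIL2RB tumors against 8.69 to 14.7 in aPD1, a log2 difference of -3.38 (SE 0.44), or 10.4-fold lower. Gimap7, a GTPase partner of other members, ran from 0 to 1.19 CPM (median 0.163) against 1.66 to 3.51, a log2 difference of -2.94 (SE 0.53), or 7.66-fold lower. Both genes lay wholly below their aPD1 levels, and Gimap7 was at 0 counts in replicates 2 and 8, which allows up to 0.160 and 0.151 CPM in counting error alone. Gimap1, which mature lymphocytes need, was 3.25-fold lower (log2 difference -1.70, SE 0.19; 1.01 to 2.20 CPM, median 1.5), and Gimap8, the largest of the proteins, 3.22-fold lower (-1.69, SE 0.23; 1.16 to 6.91 CPM, median 3.22). Gimap5 was 2.88-fold lower (-1.53, SE 0.26; 0.471 to 2.37 CPM, median 1.05) and Gimap4 2.16-fold lower (-1.11, SE 0.13; 10.3 to 20.9 CPM, median 15.2). Among these 4 genes only Gimap8 overlapped with aPD1. Gimap6 (7.26 to 11.9 CPM, median 9.78) differed by -0.76 (SE 0.13) and Gimap9 (4.67 to 7.95 CPM, median 6.44) by -0.22 (SE 0.11), both with overlap. All members but Gimap9, 7 of 8, passed the threshold as lower, where 14.5% of all genes tested did, and 5 of 8 did not overlap, where 4.22% of all genes did not.

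Read against isotype control instead, all 8 members had negative log2 differences in aPD1 + aIL2RB, and they were graded in size. Gimap3 (-2.56, SE 0.46) and Gimap7 (-2.51, SE 0.55) were 5.89-fold and 5.69-fold lower than in isotype control, and Gimap1 (-0.86, SE 0.20) was 1.81-fold lower. These 3 of 8 passed the threshold as lower, where 1.51% of all genes tested did, 6 of 8 had an unadjusted p under 0.05, and Gimap1 and Gimap3 did not overlap, as 0.827% of all genes did not. Without aPD1 + aIL2RB replicate 3, Gimap4 and Gimap8 passed as well, and within the lower range of replicate numbers only Gimap3 did. The other log2 differences were -0.71 for Gimap5 (SE 0.28) and Gimap8 (SE 0.25), -0.42 for Gimap4 (SE 0.14), -0.19 for Gimap6 (SE 0.14) and -0.09 for Gimap9 (SE 0.12). Between the groups given a single blocking antibody, aPD1 + aIL2RB stood lower than aPD1 + aGMCSF by log2 differences of -2.11 (SE 0.42) for Gimap3, -1.69 (SE 0.50) for Gimap7, -0.83 (SE 0.24) for Gimap5, -0.80 (SE 0.17) for Gimap1 and -0.68 (SE 0.21) for Gimap8. Gimap1 and Gimap3, 2 of 8, passed that threshold as lower, where 0.898% of all genes tested did, and 7 of 8 had an unadjusted p under 0.05. The count was 5 without aPD1 + aIL2RB replicate 3, 1 within the higher range, 4 in DESeq2 and 4 with the range of replicate numbers as a term.

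With both antibodies, aPD1 + aGMCSF + aIL2RB, Gimap7 differed most from its aPD1 level. It ran from 0 to 0.733 CPM (median 0.0890) with replicates 6, 8 and 11 at 0 counts, a log2 difference of -3.75 (SE 0.57), or 13.4-fold lower. Gimap3 measured 5.97, 1.73, 0.833, 1.84, 2.79 and 1.63 CPM in replicates 1 to 6 and 0.359, 0, 0.356, 0.156 and 0.0471 CPM in replicates 7 to 11, a log2 difference of -3.06 (SE 0.44). Every tumor of the higher range thus lay below every tumor of the lower range for Gimap3. Gimap1 differed from aPD1 by -1.58 (SE 0.19), Gimap8 by -1.32 (SE 0.23), Gimap5 by -1.10 (SE 0.26), Gimap4 by -1.05 (SE 0.13), Gimap6 by -0.51 (SE 0.13) and Gimap9 by -0.35 (SE 0.11). All 8 passed the threshold as lower, where 14.3% of all genes tested did, and 5 of 8 did not overlap, where 1.96% of all genes did not. The call of Gimap9 was lost without aPD1 replicate 5, its highest tumor, and 5 members passed within the lower range of replicate numbers. Against isotype control, Gimap7 (-3.32, SE 0.59), Gimap3 (-2.24, SE 0.46) and Gimap1 (-0.73, SE 0.20), 3 of 8, passed as lower, where 4.51% did, Gimap1 being lost without isotype control replicate 2, and Gimap6 stood at 0.06 (SE 0.14). Against aPD1 + aGMCSF the same 3 genes passed as lower, where 1.15% of all genes did, with log2 differences of -2.50, -1.79 and -0.68. Gimap1 was lost there in 6 of 20 fits with 1 tumor left out, and the count was 1 with only the groups compared in the fit. Within the lower range alone 0 members passed against isotype control and 0 against aPD1 + aGMCSF. There Gimap7, Gimap3 and Gimap1 stood at -2.77, -1.63 and -0.54 against isotype control and at -1.95, -1.24 and -0.78 against aPD1 + aGMCSF. Against aPD1 + aIL2RB the members differed by -0.81 (Gimap7) to 0.43 (Gimap5), and 0 of 8 passed in edgeR, 1 had an unadjusted p under 0.05 and 0 passed in DESeq2, where 0.00591% of all genes tested passed, while Gimap3 passed within the higher range of replicate numbers.

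The 4 groups given aPD1 form a layout in which the effect of aGMCSF can be read with and without aIL2RB. Without aIL2RB the members stood lower when aGMCSF was added, and with aIL2RB 6 of 8 did not, so the interaction (the difference between these effects) was positive for all 8. It was 1.37 (SE 0.32) on the log2 scale for Gimap8, 1.13 (SE 0.36) for Gimap5, 1.03 (SE 0.26) for Gimap1, 0.89 (SE 0.18) for Gimap4 and 0.76 (SE 0.18) for Gimap6. These 5 of 8 passed the threshold as higher, where 5.29% of all genes tested did. The call of Gimap5 was lost in 17 of 37 fits with 1 tumor left out and with the replicate number as a block, and the count was 0 within the lower and 3 within the higher range of replicate numbers. Within the lower range, with fewer tumors, these 5 interactions were 0.67 (Gimap6) to 1.55 (Gimap5). Gimap3 (1.58, SE 0.61), Gimap7 (0.44, SE 0.82) and Gimap9 (0.04, SE 0.15) did not pass. Marker lists had positive interactions too: 5 of 5 leukocyte genes (median 0.76), 7 of 9 macrophage genes (0.71) and 3 of 21 T cell genes (1.63) passed as higher. In edgeR 0 natural killer, B cell, dendritic cell and endothelial genes passed as higher (medians 1.34, 0.82, 0.72 and 0.31). The part of these genes in the members' interaction was not tested. Within the higher range of replicate numbers alone, the interaction was negative for Gimap3 (-0.71, against 1.95 within the lower range), Gimap7 (-0.30 against 0.42) and Gimap9 (-0.10 against 0.17).

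**Figure D2:**
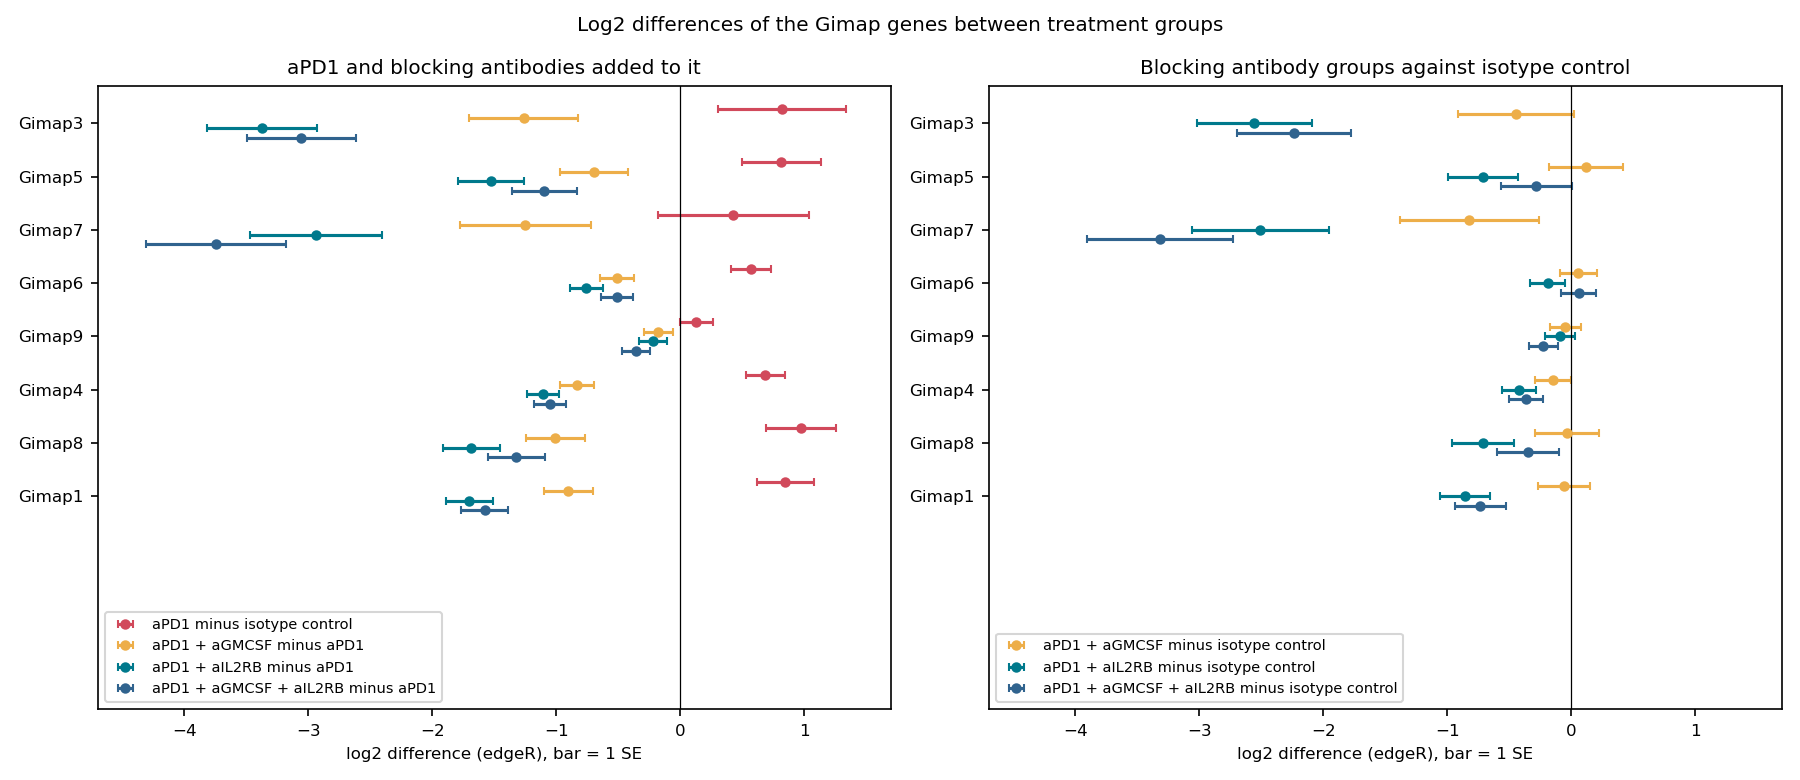
Log2 differences of the 8 Gimap genes from the edgeR fit with bars of 1 SE, at left aPD1 minus isotype control and each blocking antibody group minus aPD1, at right the blocking antibody groups minus isotype control. Gimap3 and Gimap7 sit far to the left of the other members in both groups given aIL2RB, at -2.24 to -3.32 against isotype control, and Gimap9 stays within 0.35 of 0 throughout.

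Because the ranges of replicate numbers were drawn from these data, differences between them are a description without a p. With the treatment groups in the model, Gimap3 was at a log2 difference of -0.81 (SE 0.27) in the higher against the lower range and Gimap8 at -0.42 (SE 0.13). With each range fitted alone, the log2 difference of Gimap3 between aPD1 + aGMCSF + aIL2RB and aPD1 was -2.13 in the lower and -6.10 in the higher range. In a single fit of both ranges the change between them was -3.95 (SE 0.68). The change was -3.37 (SE 0.74) against isotype control, -3.07 (SE 0.64) against aPD1 + aGMCSF and -3.56 (SE 0.65) against aPD1 + aIL2RB, and these 4 comparisons share the tumors given both antibodies. Against aPD1 + aIL2RB, Gimap3 stood higher with both antibodies within the lower range (1.06) and lower within the higher range (-2.50). T cell genes moved with Gimap3 in these tumors. Among the 11 tumors given both antibodies its log2 CPM had an SD of 1.87, and an SD of 0.62 once the mean of the T cell list described below was subtracted. Whether the change between the ranges is particular to Gimap3 was not tested.

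Gimap3 in aPD1 + aIL2RB tumors averaged 1.21 ± 0.60 CPM (SD, n = 6) in the lower and 1.06 ± 0.46 (n = 5) in the higher range, and with both antibodies 2.47 ± 1.83 (n = 6) and 0.18 ± 0.17 (n = 5). Its difference between aPD1 + aIL2RB and aPD1 was -3.18 within the lower and -3.60 within the higher range. Gimap7 stood at -2.84 and -5.66 in the comparison of both antibodies with aPD1, and the single fit of both ranges gave a change of -2.80 (SE 1.21).

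Genes outside the family within 500 kb of the cluster were read in the same fit. This list was set with earlier results of these data known, so its adjusted p are a description. Of 33 such genes in the matrix, 21 passed the filter, and in aPD1 + aIL2RB minus aPD1 their median log2 difference was 0.03, with 5 lower and 1 higher at the threshold. Those lower were Gimap1os (-2.42, SE 0.59, adjusted p = 0.0016), the antisense gene that overlaps part of Gimap1, whose counts were not whole in 9 of 42 tumors and may include reads of Gimap1, and Igf2bp3, Zfp467, Krba1 and Atp6v0e2, at -2.10 to -0.97. Tmem176b was higher (0.31, SE 0.12, adjusted p = 0.0460). Beside 7 of 8 members lower, 5 of these 21 neighbours were lower, and the difference between these shares was not tested.

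Marker genes of other cell types moved in the same comparisons, and their part in the values of the Gimap genes was not tested. The marker lists were chosen with earlier results of these data known, so the adjusted p printed for marker genes are a description. Of 21 T cell genes, 0 passed the threshold in aPD1 minus isotype control in edgeR (median log2 difference 0.97, 5 at an unadjusted p under 0.05, 0 in DESeq2), 20 were lower and 0 higher in aPD1 + aIL2RB minus aPD1 (-2.94) and 21 were lower with both antibodies (-2.53). Their summed level ran from 85.4 to 141 CPM in isotype control, 166 to 317 in aPD1, 68.7 to 170 in aPD1 + aGMCSF, 15.4 to 91.8 in aPD1 + aIL2RB and 11.0 to 184 with both. The last 3 groups overlapped with each other and with isotype control. The aPD1 tumors overlapped with aPD1 + aGMCSF and with both antibodies, but not with isotype control or aPD1 + aIL2RB. Cd8a, the coreceptor of cytotoxic T cells, averaged 14.9 CPM in isotype control, 33.3 in aPD1, 15.5 in aPD1 + aGMCSF, 2.54 in aPD1 + aIL2RB and 5.51 with both, and Cd3e, part of the T cell receptor complex, 5.72, 10.6, 4.84, 1.45 and 1.88. Both fell in aPD1 + aIL2RB against aPD1 (Cd8a -3.73, SE 0.53, adjusted p = 1.23e-06, and Cd3e -2.88, SE 0.48, adjusted p = 1.42e-05, edgeR), whereas Cd4, of helper T cells, did not pass (-1.05, SE 0.43, adjusted p = 0.063). Against isotype control 11 of the 21 were lower in aPD1 + aIL2RB and 7 with both, the groups in which Gimap1, Gimap3 and Gimap7 also passed as lower. In the tumors given both antibodies 14 of the 21 T cell genes had a tumor at 0 counts, among them Cd3e, Cd8a and Trbc1, and Gimap4 there was still at 12.5 CPM in its lowest tumor.

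Natural killer genes were lower in 7 of 7 in aPD1 + aIL2RB minus aPD1 (median -3.61), and Ncr1, which marks these cells, was at 0 counts in all 11 aPD1 + aIL2RB tumors. Endothelial genes did not share this direction: of 16, 0 were lower in any of the 10 comparisons in edgeR or DESeq2 (at most 2 at an unadjusted p under 0.05), and 8 were higher with both antibodies than in isotype control (median 0.43), where 5.69% of all genes tested were. Pecam1, an adhesion protein of vessels, averaged 47.2, 65.8, 53.8, 53.8 and 60.5 CPM in the order of groups above, and Cdh5, the cadherin of vessel walls, 53.1, 59.7, 62.7, 68.5 and 74.5. Leukocyte genes as a whole followed aPD1, with 5 of 5 higher against isotype control (median 0.74) and 5 of 5 lower in aPD1 + aIL2RB minus aPD1 (-1.09), led by Ptprc, the common leukocyte antigen (0.97, SE 0.25, adjusted p = 0.013, and -1.29, SE 0.20, adjusted p = 5.2e-06). Macrophage genes gave 8 of 9 higher and 7 of 9 lower in these comparisons. B cell genes, of which 6 of 8 could be tested, gave 2 higher and 3 lower, and Cd79a, which marks B cells, averaged 0.42 to 0.70 CPM in all groups. Dendritic cell genes gave 0 of 7 in edgeR and in DESeq2 (1 at an unadjusted p under 0.05), then 3 lower and 1 higher, neutrophil genes 1 of 4 higher, then 1 lower, fibroblast genes 1 higher and 1 lower of 7, then 3 higher and 2 lower, and epithelial genes 0 of 5 in both tools (0 at an unadjusted p under 0.05), then 1 lower.

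Set against the T cell genes of the same tumor, the members differed in direction. The measure was the log2 CPM of a gene less the mean log2 CPM of the list, with a prior count of 2. Gimap4 stood at 2.25 ± 0.24 (SD, n = 5) in isotype control and 3.79 ± 0.80 (n = 11) in aPD1 + aIL2RB, Gimap6 at 1.40 ± 0.24 and 3.18 ± 0.92, and Gimap9 at 0.66 ± 0.25 and 2.53 ± 0.95. Gimap8, Gimap5 and Gimap1 were intermediate. Gimap3 stood at 0.67 ± 0.28 and 0.09 ± 0.61 and Gimap7 at -1.16 ± 0.30 and -1.80 ± 0.52, so these 2 genes alone of the 8 did not gain on the T cell list. Set against the endothelial genes, Gimap9 (-0.42 ± 0.20 and -0.85 ± 0.32) and Gimap6 (0.32 ± 0.16 and -0.20 ± 0.25) moved least, and Gimap3 (-0.41 ± 0.29 and -3.29 ± 0.60) and Gimap7 (-2.24 ± 0.24 and -5.17 ± 1.19) moved most.

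**Figure D3:**
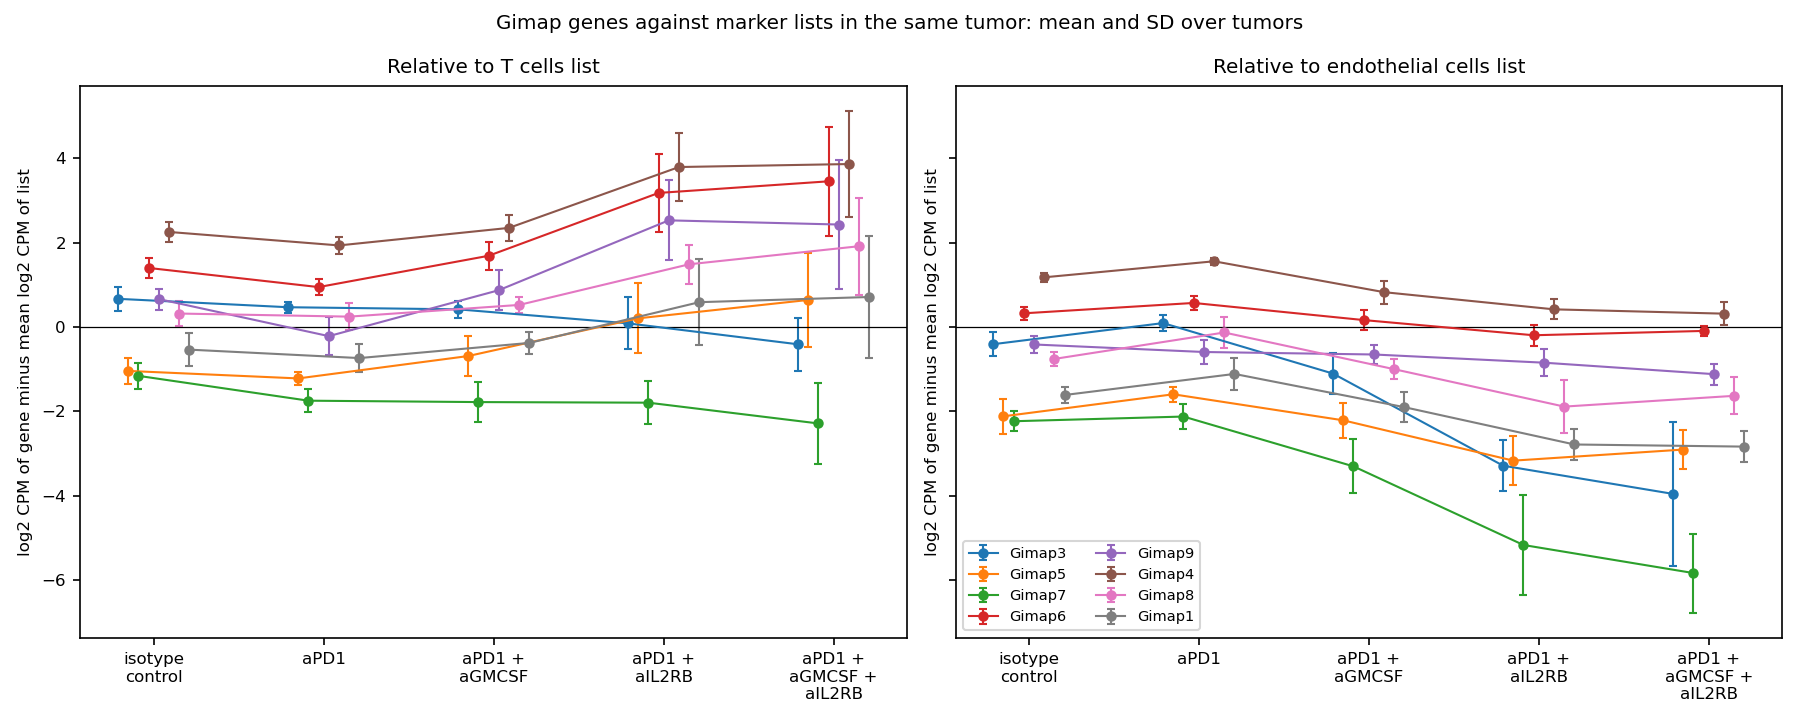
Log2 CPM of each Gimap gene less the mean log2 CPM of the T cell list (left) or the endothelial list (right) in the same tumor, as mean and SD by group; lines only join the values of a gene. Gimap3 and Gimap7 do not gain on the T cell list from isotype control to aPD1 + aIL2RB, whereas Gimap4 goes from 2.25 to 3.79, and against the endothelial list Gimap6 stays within 0.57 of 0.

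Tumors of the same group were then compared with each other by subtracting group means, as a description over 42 tumors that share the groups, libraries and depth. Over both ranges of replicate numbers, Gimap3 had the highest r with the mean of the T cell list (Pearson r = 0.89, Spearman rho = 0.90, and r = 0.83 without the 2 tumors farthest on the list). Gimap7 (r = 0.77, rho = 0.71, r = 0.73 without the 2), Gimap8 (0.77, 0.76 and 0.76), Gimap4 (0.73, 0.68 and 0.64) and Gimap5 (0.62, 0.61 and 0.47) came next, then Gimap6 (0.55, 0.59 and 0.46) and Gimap1 (0.24, 0.32 and 0.25). Gimap9 showed no relation (0.04, 0.04 and -0.03). This order turned within the ranges. In the lower range r was 0.85 for Gimap7, 0.83 for Gimap8 and 0.83 for Gimap3, and in the higher range it was 0.78 for Gimap5, 0.76 for Gimap7, 0.69 for Gimap3 and 0.53 for Gimap8. It also differed between groups, where the member with the highest r was Gimap4 in aPD1 (0.99, Gimap3 at 0.97), Gimap8 in aPD1 + aGMCSF (0.94, Gimap3 at 0.92), Gimap7 in aPD1 + aIL2RB (0.92, then Gimap8 at 0.88 and Gimap3 at 0.74) and Gimap3 with both antibodies (0.95). Without the 2 farthest tumors of the group, Gimap3 (0.994) passed Gimap4 (0.979) in aPD1 and Gimap1 (0.92) passed Gimap8 (0.85) in aPD1 + aGMCSF. Gimap7 and Gimap3 stayed highest in the groups given aIL2RB. Gimap6 gave 0.06 in aPD1 + aIL2RB and 0.95 with both. With the endothelial list, Gimap6 had the highest r of the family (r = 0.67, rho = 0.70), and 0.72 within the lower range. Without the 2 farthest tumors it gave 0.64, beside 0.61 for Gimap4 and 0.60 for Gimap5 and Gimap3. Its place was lost within the higher range, at 0.25 behind Gimap5 (0.57), Gimap4 (0.52), Gimap7 (0.32) and Gimap3 (0.27). In aPD1 + aIL2RB it was at 0.17, behind Gimap4 (0.39), Gimap5 (0.36) and Gimap3 (0.26).

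Between members, r over all 42 tumors was highest for Gimap3 and Gimap7 (0.88, and 0.60 with group means subtracted), Gimap4 and Gimap8 (0.84 and 0.63), Gimap3 and Gimap4 (0.82 and 0.73) and Gimap7 and Gimap8 (0.80 and 0.76). The highest within groups was thus that of Gimap7 and Gimap8, which are not neighbours in the cluster. Gimap1 kept little of its relation within groups, at most 0.29 (with Gimap6), from 0.41 to 0.75 over all tumors. Pairs with Gimap9 ran from 0.20 to 0.47 over all tumors and from -0.03 to 0.32 within groups. The neighbours Gimap5 and Gimap3, which share coding sequence, gave 0.76 and 0.64.

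**Figure D4:**
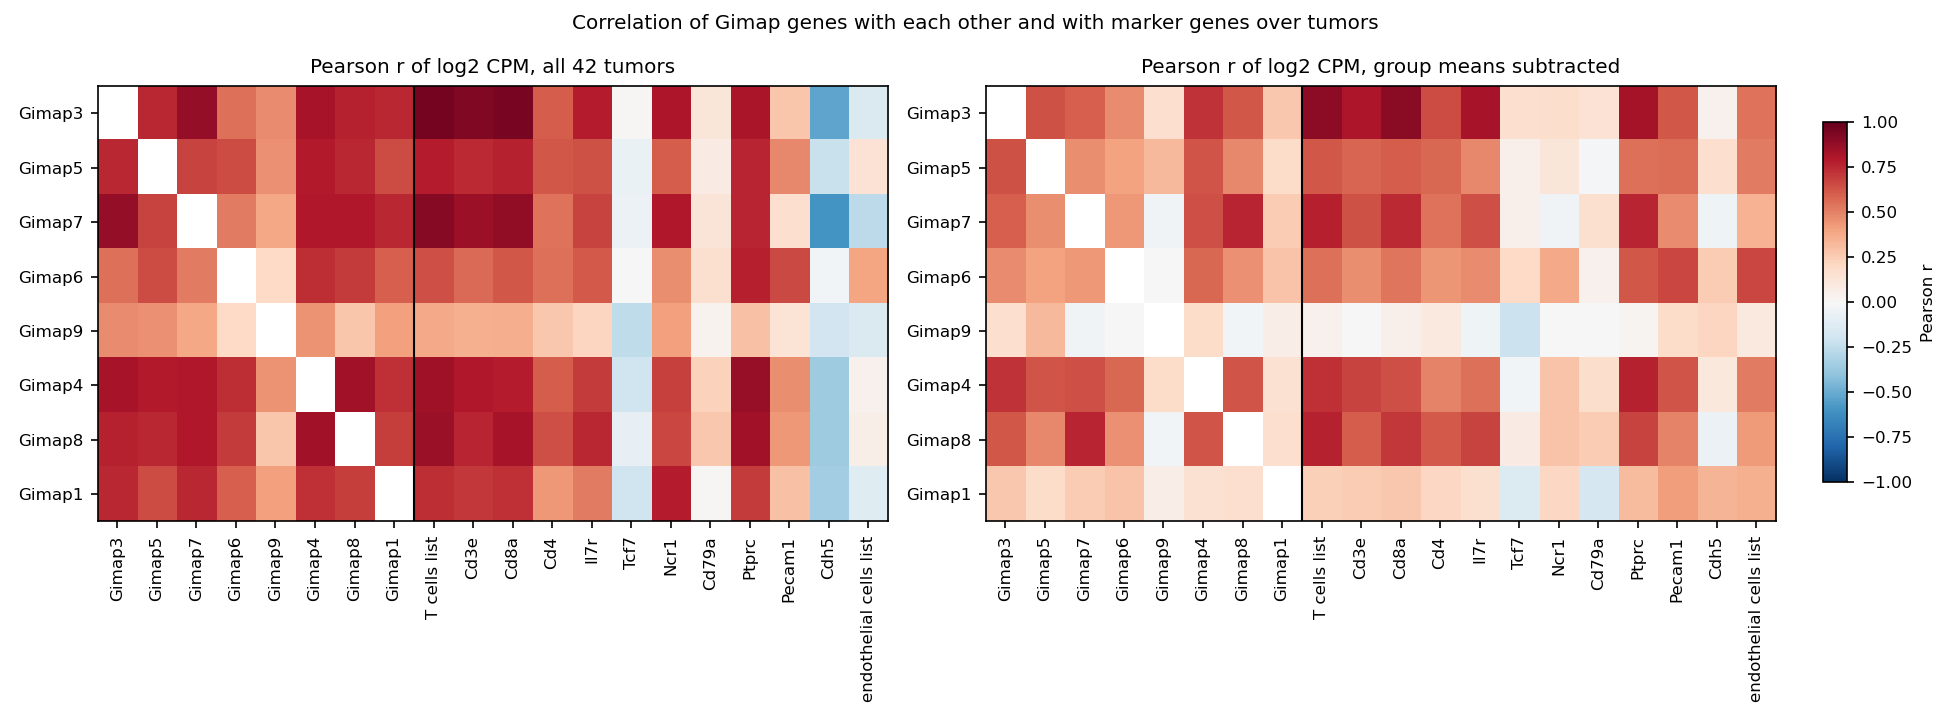
Pearson r of log2 CPM between Gimap genes, and of each with marker genes and the means of the T cell and endothelial lists, over all 42 tumors (left) and with group means subtracted (right), on a colour scale from -1 to 1. Gimap3 and the T cell list keep a high r within groups (0.89), and Gimap9 lies between -0.22 and 0.32 with the other genes and lists there.

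The genes outside the family most like it were those whose log2 CPM had the highest Pearson r, over 42 tumors, with the mean standardized level of the 8 members. They were Thy1 (r = 0.947), a T cell surface protein that is also on the T cell list, B4galnt1 (0.934), Ptpn22 (0.929), a phosphatase that restrains T cell receptor signaling, Aoah (0.927), Myo1g (0.927), Ifi30 (0.926), Ms4a4b (0.926), Spn (0.925), the leukocyte sialophorin, AW112010 (0.923) and C1qc (0.923), a complement gene of macrophages. With group means subtracted the 10 highest were Spata13 (0.864), Prex1 (0.863), Thy1 (0.856), Ptpn22 (0.854), Rassf2 (0.848), Cxcl16 (0.847), Ptprc (0.846), Ipcef1 (0.845), Cfb (0.839) and Adgrg5 (0.838). Thy1 and Ptpn22 were the 2 genes on both lists.

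Lists of genes from the processes that GIMAP proteins are known for were read beside the members. They too were chosen with earlier results of these data known, so the adjusted p of their genes are a description. Among 10 genes of quiescent lymphocytes, 2 were higher in aPD1 than in isotype control (median 0.43), and 5 were lower both in aPD1 + aGMCSF minus aPD1 (-0.77) and in aPD1 + aIL2RB minus aPD1 (-0.68). Il7r, the receptor for interleukin-7, fell in aPD1 + aIL2RB against aPD1 (-1.38, SE 0.37, adjusted p = 0.00398), and averaged 11.8, 26.3, 12.2, 10.1 and 12.3 CPM in the order of groups above. Klf2 (-0.07, SE 0.11), Tcf7 (0.08, SE 0.06) and S1pr1 (0.06, SE 0.11), which other cells also use, did not pass. Against isotype control 0 of the 10 were lower in aPD1 + aIL2RB in edgeR or in DESeq2, with 2 at an unadjusted p under 0.05. Of all genes tested 1.51% were lower there, among them Gimap1, Gimap3 and Gimap7, and the list was not tested against the members.

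Among 10 apoptosis genes, 3 were higher in aPD1 than in isotype control (median 0.05) and 5 lower in aPD1 + aIL2RB minus aPD1 (-0.18). Bcl2l11, the death protein BIM, rose with aPD1 (0.64, SE 0.16, adjusted p = 0.0111) and fell with aIL2RB (-0.51, SE 0.13, adjusted p = 0.00329). Its opponent Bcl2 fell in the latter alone (-0.27, SE 0.08, adjusted p = 0.0122), and Bax, which opens the mitochondrial membrane, passed in neither (0.07 and -0.21). Of 9 autophagy genes, 0 passed in aPD1 minus isotype control in edgeR or DESeq2, with 0 at an unadjusted p under 0.05, and 2 were higher and 0 lower in aPD1 + aIL2RB minus aPD1 (median -0.06), where 13% of all genes tested were higher. Gabarapl2, the partner of GIMAP6, averaged 37.5 to 44.3 CPM in the 5 groups and differed by -0.08 (SE 0.08, adjusted p = 0.519) in that comparison.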

How the data were processed

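Bulk RNA was measured by poly(A) RNA sequencing (KAPA mRNA HyperPrep) of 42 tumors that had been frozen in medium with DMSO. The deposited values are expected counts per gene: the authors aligned 100-base reads with Bowtie 1.2.3 to transcripts of the 8 founder strains of the Collaborative Cross (GRCm38, mm10) and divided reads that fit several places by estimation, so 15.2% of values are not whole. They were rounded here. Symbols, exons and coding sequences came from GENCODE vM21 on GRCm38, upstream sequences from RefSeq on GRCm38.p6. The 8 genes and all lists (leukocytes, T, natural killer and B cells, endothelium, macrophages, dendritic cells, neutrophils, fibroblasts, epithelial cells, quiescent lymphocytes, apoptosis, autophagy, genes within 500 kb) were chosen with earlier results of these data known. Every member was to be named in every comparison, and of the lists the defining markers and a few genes, of other genes the 10 most correlated with the members. Some comparisons that involve a blocking antibody group give values for only part of the members.

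Counts were scaled by TMM and tested with the quasi-likelihood test of edgeR 4.0.16 (R 4.3.3) on 16932 genes left by filterByExpr (minimum count 10, minimum total 15), all 5 groups in 1 model, with Benjamini-Hochberg adjustment over all genes tested and a threshold of 0.05. On simulated data (16630 genes) with 200 genes changed 2-fold in aPD1, the test of aPD1 minus isotype control recovered 132 with 3 false calls. It called 0 in aPD1 + aIL2RB minus aPD1 + aGMCSF, where nothing was changed. Simulated counts took their spread from the trend over genes and not from each gene, so these rates need not hold for the measured data. CPM without a stated prior had none, and log2 CPM for correlations had a prior count of 2. Correlations and levels were computed in Python 3.11.15 (numpy 2.4.6, pandas 2.3.3). Limits for 0 counts assume 3 counts and cover counting error only. Alternatives were DESeq2 1.42.0, other scalings and filters, the replicate number or its range as a term, each range alone and each tumor left out. Protein sequences were not used here. The values of 1 gene in the list of quiescent lymphocytes are not reported here.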

Additional observations from a re-analysis of the deposited data

Results flagged for a closer look

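In groups of 4 to 10 tumors, of which 24 combinations of gene and group were examined, 3 held a tumor far from the others by Dixon's criterion, and chance gives about 1 in 20. The aPD1 + aGMCSF replicate 4 tumor was highest for Gimap4 (27.1 CPM, the next at 18.9) and for Gimap8 (7.95 CPM, the next at 5.79), so a single tumor gave 2 of the 3. The aPD1 replicate 5 tumor was highest for Gimap9 (9.85 CPM, the next at 7.45).

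The log2 difference of Gimap3 between aPD1 + aGMCSF + aIL2RB and each other group differed between the higher and the lower range of replicate numbers, by -3.95 against aPD1, -3.37 against isotype control, -3.07 against aPD1 + aGMCSF and -3.56 against aPD1 + aIL2RB. The tumors given both antibodies enter all 4 values, and the ranges themselves were drawn from these data, so that no p is given.

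The log2 effect of aGMCSF under aPD1 was higher (less negative or positive) with aIL2RB than without it for Gimap8 (by 1.37), Gimap5 (1.13), Gimap1 (1.03), Gimap4 (0.89) and Gimap6 (0.76). These values rest on group levels that were known when the genes were chosen.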

How the results depend on the processing

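Of 1976 log2 differences with 1 tumor left out, 0 changed by more than the spread, and of 966 under the other alternatives 29 did, all with a single range of replicate numbers, and 0 of the called ones changed sign. With the median of a list in place of its mean, 0 of 64 values relative to it were counted as moved, though the values were not identical. Gimap3 with both antibodies, for example, stood at -0.41 against the mean and at -0.27 against the median of the T cell list. Counts of members past the threshold moved with fewer tumors, and those within 1 range are given without the share of all genes. With the lower numbers only they were 0 for aPD1 minus isotype control, 0 for aPD1 + aGMCSF minus aPD1, 5 for both antibodies minus aPD1, 1 for aPD1 + aIL2RB and 0 for both minus isotype control, 0 for both minus aPD1 + aGMCSF and 0 for the interaction. With the higher numbers only they were 1 for aPD1 + aIL2RB minus aPD1 + aGMCSF, 1 (Gimap3) for both minus aPD1 + aIL2RB and 3 for the interaction. A minimum of 10 counts in every tumor left 5 members, without Gimap1, Gimap3 and Gimap7, and gave 4 for aPD1 + aIL2RB and 5 for both minus aPD1, and 0 for each of these groups against isotype control and against aPD1 + aGMCSF. The comparison of aPD1 + aIL2RB with aPD1 + aGMCSF gave 4 with the range as a term and 4 in DESeq2, and that of both with aPD1 + aGMCSF gave 1 with only the groups compared in the fit; the cause was not tested. Counts for the range itself stayed at 2 members (Gimap3 and Gimap8), where 25.1% of all genes tested passed, and nothing is read from them. This included size factors of DESeq2 and each tumor left out, which were added after seeing the data.

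Leaving out 1 tumor gave 2 to 4 members for aPD1 minus isotype control, with Gimap6, Gimap8 or both lost without isotype control replicate 1 (3 members), 3 (2) or 4 (3) or aPD1 replicate 1 (2), 4 (2) or 6 (3). It gave 4 to 6 for aPD1 + aGMCSF minus aPD1, Gimap3 being lost in 11 of 15 fits and Gimap5 gained without aPD1 + aGMCSF replicate 4, 7 to 7 for aPD1 + aIL2RB minus aPD1, and 7 to 8 for both, Gimap9 being lost without aPD1 replicate 5. Against isotype control it gave 0 to 0 for aPD1 + aGMCSF, 3 to 5 for aPD1 + aIL2RB (5 without its replicate 3, with Gimap4 and Gimap8 gained) and 2 to 4 for both (2 without isotype control replicate 2, 4 without replicate 1 of both). It gave 2 to 5 for aPD1 + aIL2RB minus aPD1 + aGMCSF (5 without aPD1 + aIL2RB replicate 3, 4 without its replicate 9, 3 without its replicate 11 or aPD1 + aGMCSF replicate 3), 2 to 3 for both minus aPD1 + aGMCSF (2, with Gimap1 lost, without aPD1 + aGMCSF replicate 1, 4 or 6 or replicate 6, 8 or 9 of both), 0 to 0 for both minus aPD1 + aIL2RB and 4 to 6 for the interaction, where Gimap5 was lost in 17 of 37 fits.

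The replicate number as a block gave 4 members for aPD1 minus isotype control, 4, 7 and 8 for the groups given aGMCSF, aIL2RB and both minus aPD1, 0, 3 and 3 for these minus isotype control, 2 for aPD1 + aIL2RB and 3 for both minus aPD1 + aGMCSF, 0 for both minus aPD1 + aIL2RB and 4 for the interaction, with Gimap3 lost in aPD1 + aGMCSF minus aPD1 and Gimap5 in the interaction. The numbers did not pair the tumors: of 67 pairs with the same number 16 had a correlation of deviations over 0.1 (range -0.168 to 0.193), and 8 of 42 tumors correlated best with a tumor of their own number. Of the 10 genes most like the members, 3 were shared with Spearman correlation, 9 with a prior count of 0.5 and 2 with group means subtracted, which took the median correlation between members from 0.70 to 0.42. Depth limits Gimap7 and Gimap3, which were at 0 counts in up to 3 tumors of a group.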
